A study of Mus musculus and unidentified plasmid with 60 samples.

Results

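Rfx3 and Rfx7 are mouse genes that encode members of the RFX family of transcription factors, and the regions listed in and around them were examined in 3 lists of ChIP-seq regions from cultured cortical neurons. The regions were chosen by position, as all those that overlap a window on mm9 around either gene. The Rfx3 window runs from 27825000 to 28095000 on chromosome 19 (270 kb) and the Rfx7 window from 72370000 to 72475000 on chromosome 9 (105 kb). Together they hold 93 of the 295409 regions in the 3 lists. The genes were themselves selected on these lists, because regions of the short WT list lie there, so the presence and number of WT regions in the windows are a description and carry no test.

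RFX proteins bind DNA through a winged-helix domain that recognises the X-box, an inverted repeat of a short motif. Rfx3, like its close relatives Rfx1 and Rfx2, also carries a dimerization domain and is best known for controlling genes of motile and primary cilia. Rfx7 belongs to another branch of the family, with Rfx5, and lacks that dimerization domain. A dominant-negative RFX (RFX-DN) is a construct that interferes with the native proteins. The family member it was built from is named in no source used here.

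The series holds 60 samples, of which 8 are ChIP-seq libraries from neurons of E16 CD-1 embryos, collected on day in vitro (DIV) 7. Of these, 2 come from RFX-DN neurons depolarized with 55 mM KCl for 1 h and 2 from RFX-DN neurons at 0 h, labelled unstimulated. A further 2 are titled WT and carry no treatment in their labels. The protocol describes lentiviral delivery of the construct on DIV 2, silencing overnight from DIV 6 by tetrodotoxin together with APV, which blocks NMDA receptors, and precipitation with an antibody against the MYC tag. This protocol text is shared by all ChIP-seq samples, so whether the WT neurons carried the construct or were silenced is not clear from it. The 2 input libraries and the other 52 samples were not analysed here. Whether the libraries within a group stem from separate cultures is not stated.

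Each group has 1 list, made from its 2 libraries, with 122135 regions in the 1 h list, 173231 in the 0 h list and 43 in the WT list. A region has a start, an end and a position in 1 or both of 2 columns named c1 and c2, read here as the peak centre in each replicate. The columns do not name their library, so c1 of one list need not match c1 of another. The lists hold no read counts, score or depth. Positions are given as the lists print them. No mm9 annotation was used, so no region is assigned to an exon, an intron or a UTR. In RefSeq's GRCm38.p6 annotation, the neighbouring protein-coding genes are Pum3 and Glis3 for Rfx3, and Tex9 and Nedd4 for Rfx7.

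The only sequence used was RefSeq's promoter table (GRCm38.p6, from 250 bases before to 50 bases after each gene's start), in which both genes have an entry. It was searched on both strands for GTTNCC and GGNAAC spaced by 0 to 3 bases, a form of the X-box, and for the 6-base arms GTTGCC and GGCAAC, which are reverse complements of each other. Of 32851 promoters, 0.804% held the X-box form and 12.5% an arm. Neither gene's promoter held the X-box form. The Rfx3 promoter held 1 arm, shown here in capitals with its flanks because it is the only such match in either promoter. It lies on chromosome 19, minus strand, and begins at base 32 counted from 1 at the gene's start.

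Rfx3 promoter arm: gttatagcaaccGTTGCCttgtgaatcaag

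The Rfx7 promoter held no arm. A match of these letters is a description only, and these promoters were not placed on the mm9 lists, which use another build.

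The Rfx3 window was dense in regions, in part through those that met the WT list. The 1 h list had 30 regions there, the 0 h list 35 and the WT list 11, covering 7030, 10060 and 2350 bases. Windows of 270 kb tiled over the genome, leaving out those that touch either gene's window, held a median of 12 regions at 1 h (quartiles 7 and 18) and 18 at 0 h (quartiles 9 and 26) wherever they held any. As many regions as in the Rfx3 window were found in 2.28% of these tiles at 1 h and 7.21% at 0 h. The window was thus among the denser ones without being the densest. This rank is a description only, since 11 of its regions at each time met the WT list that led to the choice. The other 19 at 1 h lay just above the tiles' upper quartile, and the other 24 at 0 h below it. The tiles also lie on a fixed grid, whereas the window was placed around the gene.

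Most regions of the Rfx3 window were listed at both times. All 30 of the 1 h regions overlapped a 0 h region (100%, 95% exact Clopper-Pearson interval 88.4% to 100%), against 93.3% of the whole 1 h list. Among the 35 of the 0 h list, 30 had an overlapping region at 1 h (85.7%, interval 69.7% to 95.2%), against 65.4% of the whole 0 h list. The intervals cover counting error only, and regions of 1 window share their libraries and are not replicates. The share at 1 h is close to the background. The share at 0 h is above its background in the lists as deposited, but this depended on the columns used. With both-column regions only, the 0 h share was 33.3% at Rfx3, below the 61.0% of the whole list. Without the 1 h list's c1 column it was 57.1% at Rfx3 and 42.0% over the whole list, and without its c2 column 51.4% at Rfx3 and 62.1% over the whole list. The 5 regions at 0 h with no 1 h counterpart were 10 to 250 bases wide, and the widest of them (27955090 to 27955340) had centres in both columns.

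All 11 WT regions of the Rfx3 window met both RFX-DN lists. In the whole WT list, 83.7% had a counterpart at 1 h and 76.7% had one at 0 h. Conversely, 11 of the 30 regions at 1 h and 11 of the 35 at 0 h met a WT region, against 0.0295% and 0.0190% of the whole lists. That last contrast follows from the choice of the gene and is not read further.

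The WT regions form a run at one side of the window. They lie between 27842980 and 27924530, a span of 81.55 kb that takes up 30.2% of the window, and the gaps between neighbours range from 1.73 to 18.9 kb with a median of 6.49 kb. Beyond that span, 15 regions at 1 h and 20 at 0 h lie in the rest of the window. None of them could meet WT, because the outermost WT regions set the span. Within it, 4 further regions at each time fell between the WT regions without meeting any. The run is therefore interleaved with regions that the WT list lacks.

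**Figure D1:**
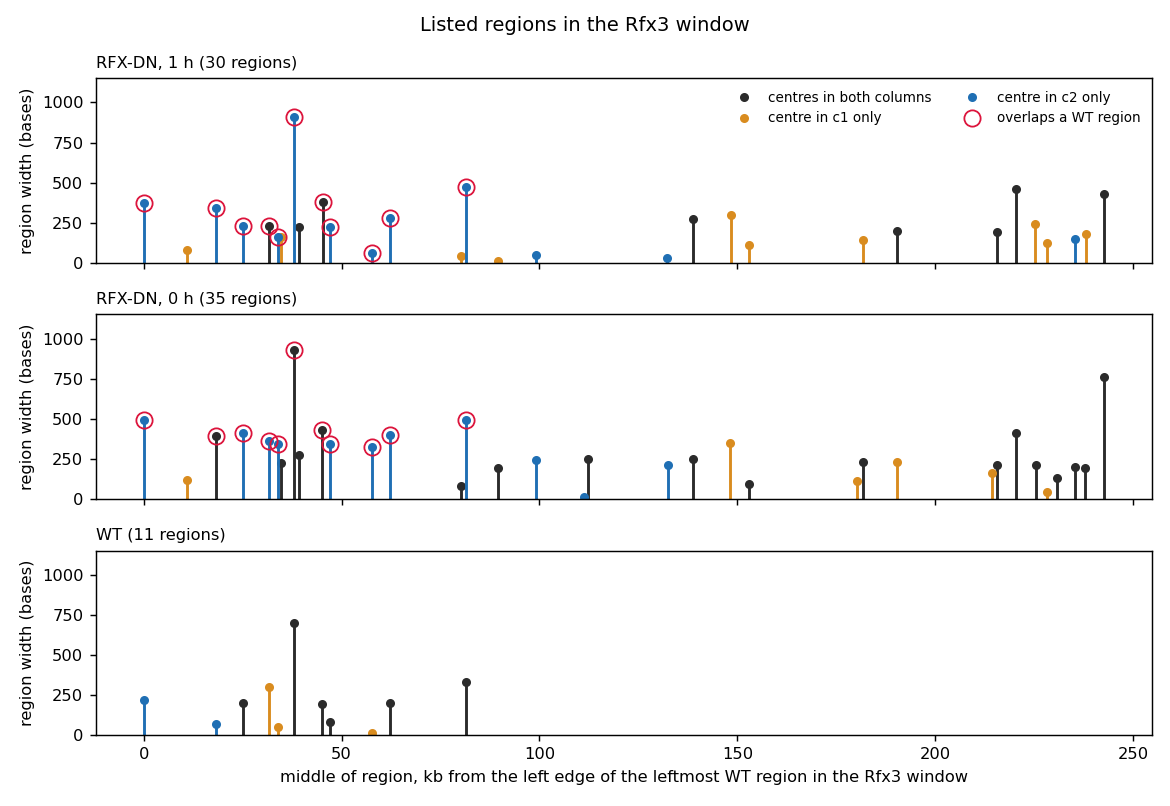
Regions of the Rfx3 window in the 1 h, 0 h and WT lists (top to bottom), placed by their middle in kb from the left edge of the leftmost WT region, with height giving width in bases and colour the columns that hold a centre. Red circles mark RFX-DN regions that overlap a WT region; these 11 lie within the leftmost 81.55 kb and are mostly blue (c2 only), while the regions to their right are mostly black or orange.

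The RFX-DN regions that met WT differed from their neighbours in which column held a centre. At 1 h, 11 of the 11 that met WT had a c2 centre and 2 had a c1 centre, so that 9 had a centre in c2 only. Among the 19 regions of the window that did not meet WT at 1 h, 9 had a c2 centre, 16 a c1 centre and 3 a centre in c2 only. Over the whole 1 h list, 93.9% of regions had a c1 centre, 60.9% a c2 centre, 54.8% both and 6.12% c2 only. Centres in c1 are thus the rule in this list and the exception among the regions that met WT.

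The 0 h list was also short of c1 centres among the regions that met WT, although its columns need not be in the library order of the 1 h list. Of the 11 regions that met WT, 11 had a c2 centre, 3 a c1 centre and 8 a centre in c2 only. Of the 24 that did not, 18 had a c2 centre, 21 a c1 centre, 15 both and 3 a centre in c2 only. The whole 0 h list had 90.0% of regions with a c1 centre, 71.0% with a c2 centre, 61.0% with both and 9.97% with c2 only. Within the 81.55 kb run itself, all 4 regions at 1 h and all 4 at 0 h that did not meet WT had a c1 centre. These 4 pairs were 27853850 to 27853930, 27877680 to 27877840, 27882140 to 27882360 and 27923240 to 27923280 at 1 h, and 27853840 to 27853960, 27877620 to 27877840, 27882110 to 27882380 and 27923240 to 27923320 at 0 h. Regions with and without c1 centres are therefore interspersed along the run.

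Regions that met WT elsewhere in the genome did not show this. Outside both windows, 24 regions at 1 h and 21 at 0 h met a WT region, and all of them had a c1 centre, with 0 in c2 only. Both columns had a centre in 8 of the 24 and 11 of the 21. Regions with a centre in c2 only were also seldom retained between times. Of the 17270 such 0 h regions in the whole list, 15.9% overlapped a 1 h region, whereas 10 of the 11 in the Rfx3 window did. Of those 11, however, 8 met WT, and regions that met WT were retained elsewhere too. Outside both windows, 21 of the 21 at 0 h overlapped a 1 h region. The retention is therefore not read as particular to Rfx3 or to c2-only regions. No test was made of these differences, since neighbouring regions share their libraries and the pattern was known when the genes were picked. If a column stands for 1 library, as read here, a centre in c2 only means that the region rests on 1 of the 2 libraries of its group. The part of that library in the pattern was not tested.

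**Figure D2:**
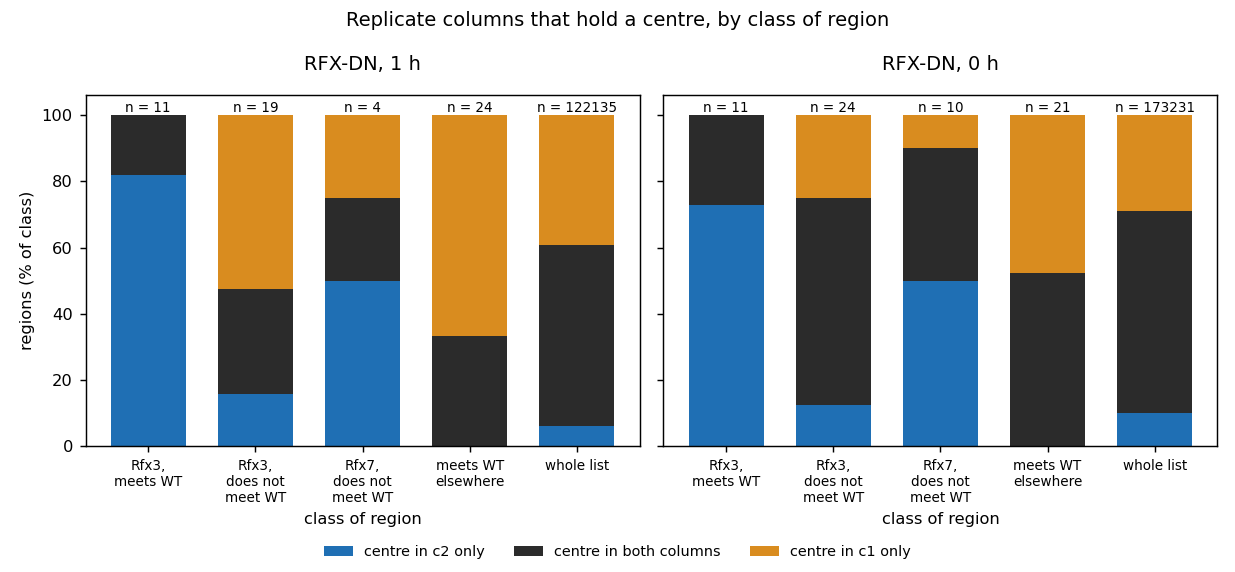
Share of regions (% of each class) with a centre in c2 only (blue), both columns (black) or c1 only (orange), at 1 h (left) and 0 h (right); n gives the regions in each class. In the Rfx3 class that meets WT, 9 of 11 regions at 1 h and 8 of 11 at 0 h are c2 only, against 6.12% and 9.97% of the whole lists and 0 of the regions that meet WT elsewhere.

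So many c2-only regions rarely lay together. The Rfx3 window held 12 at 1 h and 11 at 0 h, against medians of 0 and 1 in tiles of the same length. None of the 9397 other tiles with a 1 h region held as many, the highest having 7, and 1 of the 9458 other tiles with a 0 h region held as many, with 11. These ranks are a description only, because the pattern was known when the genes were picked. Of the c2-only regions, 9 of the 12 at 1 h and 8 of the 11 at 0 h met the WT list that led to that choice. The tiles also lie on a fixed grid that can split a cluster, whereas the window was placed around the gene. The c2-only regions that did not meet WT lay to the right of the run. At 1 h they were 27942020 to 27942070 (50 bases), 27975310 to 27975340 (30 bases) and 28078120 to 28078270 (150 bases). At 0 h they were 27941900 to 27942140 (240 bases), 27954250 to 27954260 (10 bases) and 27975280 to 27975490 (210 bases). The first and the last of the 0 h regions had c2-only counterparts at 1 h.

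In the WT list the columns were more even. Of the 11 Rfx3 regions, 9 had a c1 centre, 8 a c2 centre and 6 both, whereas 25.6% of the whole WT list had both. Of the 31 WT regions outside both windows, 31 had a c1 centre and 4 a c2 centre. Since the columns of different lists cannot be matched, the c2 of the WT list is not taken as the same library order as that of the RFX-DN lists.

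Numbered from 1 at the left, the 11 WT regions and their counterparts had the following extents. Region 6 was the widest, with 910 bases at 1 h (27880600 to 27881510), 930 at 0 h (27880590 to 27881520) and 700 in WT (27880650 to 27881350). Among all regions, 99.5% at 1 h and 99.4% at 0 h were narrower. Its centre at 1 h was in c2 only, at 27880710, and both 0 h centres lay at 27880750. In WT the c1 centre lay at 27881330 and the c2 centre at 27880730, at opposite ends of the region.

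Region 11, at the right end of the run, measured 470 bases at 1 h (27924100 to 27924570), 490 at 0 h (27924100 to 27924590) and 330 in WT (27924200 to 27924530). Region 1, at the left end, measured 370 bases at 1 h (27842890 to 27843260), 490 at 0 h (27842820 to 27843310) and 220 in WT (27842980 to 27843200). At both ends of the run c2 alone held the RFX-DN centres. The WT region at the left end was close to the 200-base median of its list. Region 7 was the only one with a centre in every column of every list. It measured 380 bases at 1 h (27887990 to 27888370), 430 at 0 h (27887940 to 27888370) and 190 in WT (27888080 to 27888270).

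Region 2 had 340 bases at 1 h, 390 at 0 h and 70 in WT (27861140 to 27861210), with both columns at 0 h and c2 alone in the other lists. Region 3 had 230 bases at 1 h, 410 at 0 h and 200 in WT (27868110 to 27868310). Region 4 had 230 bases at 1 h, 360 at 0 h and 300 in WT (27874550 to 27874850). Region 4 was the only one wider in WT than at 1 h, and with region 7 it was the only one with a c1 centre at 1 h.

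Region 5 had 160 bases at 1 h, 340 at 0 h and 50 in WT (27876890 to 27876940). Region 8 had 220 bases at 1 h, 340 at 0 h and 80 in WT (27890000 to 27890080). Region 10 had 280 bases at 1 h, 400 at 0 h and 200 in WT (27905080 to 27905280). Region 9 was the narrowest, with 60 bases at 1 h, 320 at 0 h and 10 in WT (27900560 to 27900570), and 10 bases is the smallest width in any list. Its 0 h counterpart, in c2 only, was wider than 79.2% of the 0 h list.

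The extents were nested. All 11 regions at 1 h lay inside their 0 h counterpart and were narrower, with a median of 70.0% of its width and a range from 18.8% to 97.8%. Over all 114166 overlapping pairs of the whole lists the median was 89.7%, and 71.2% of pairs were narrower at 1 h. All 11 WT regions lay inside the 0 h region and 9 inside the 1 h region, and WT widths were 3.13% to 83.3% of the 0 h widths. Median widths were 280 bases at 1 h, 400 at 0 h and 200 in WT. Regions of the window that did not meet WT had medians of 160 bases at 1 h (range 10 to 460) and 210 at 0 h (range 10 to 760). All 11 of the 0 h regions that met WT were at least 320 bases wide, in a list whose median was 200. A wide region meets another list more readily than a narrow one, so these widths are not independent of the overlap, and no replicate error can be given for the width of a region combined over libraries.

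**Figure D3:**
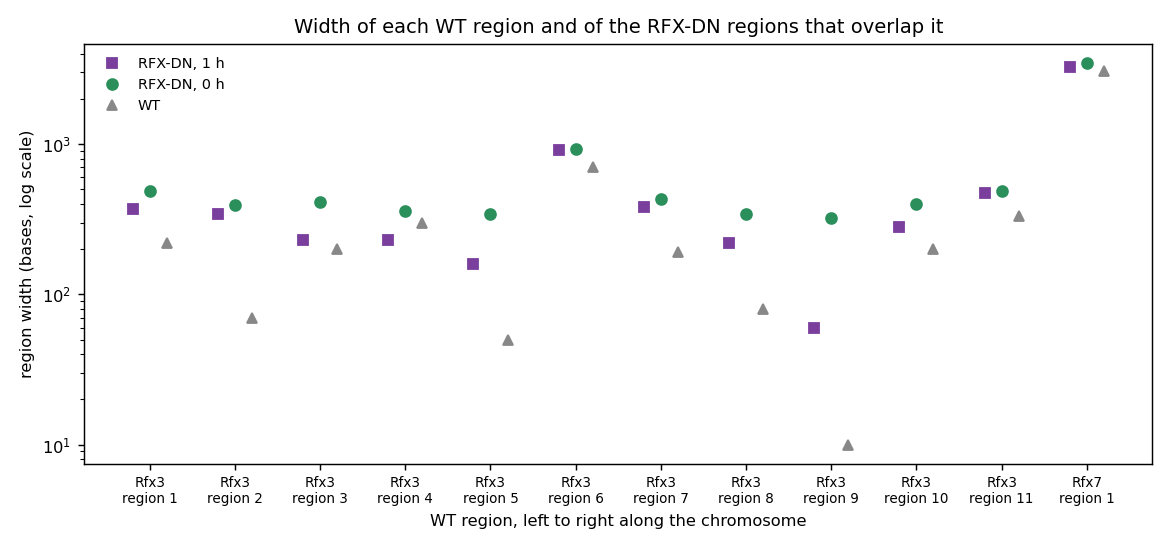
Width in bases (log axis) of each WT region of the Rfx3 and Rfx7 windows and of the 1 h and 0 h regions that overlap it, in order along each chromosome. At Rfx3 the 0 h region is the widest of the 3 every time, WT is the narrowest in 10 of 11, and the Rfx7 region spans 3060 to 3460 bases.

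Peak centres of the overlapping regions within the run were also compared across lists. Taking the nearest centres of either column, 1 h and 0 h centres lay a median of 10 bases apart (range 0 to 90), 1 h and WT centres likewise a median of 10 bases apart (range 0 to 55), and 0 h and WT centres a median of 20 bases apart (range 0 to 90). Region 5 had the same centre, 27876920, wherever a column held one. The largest spread over all centres of a region was 620 bases, in region 6, where it came from the c1 centre in WT. In the other 10 regions the spread was at most 125 bases. The positions are listed in steps that are mostly 10 bases, which limits the precision of these distances. The regions compared overlap by choice and only their nearest centres were taken, which favours small values. No whole-list value of the distance across lists was computed, so closeness is not read as particular to the run. Within a list, the median distance from c1 to c2 was 10 bases for the whole 1 h list and 10 for the whole 0 h list.

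**Figure D4:**
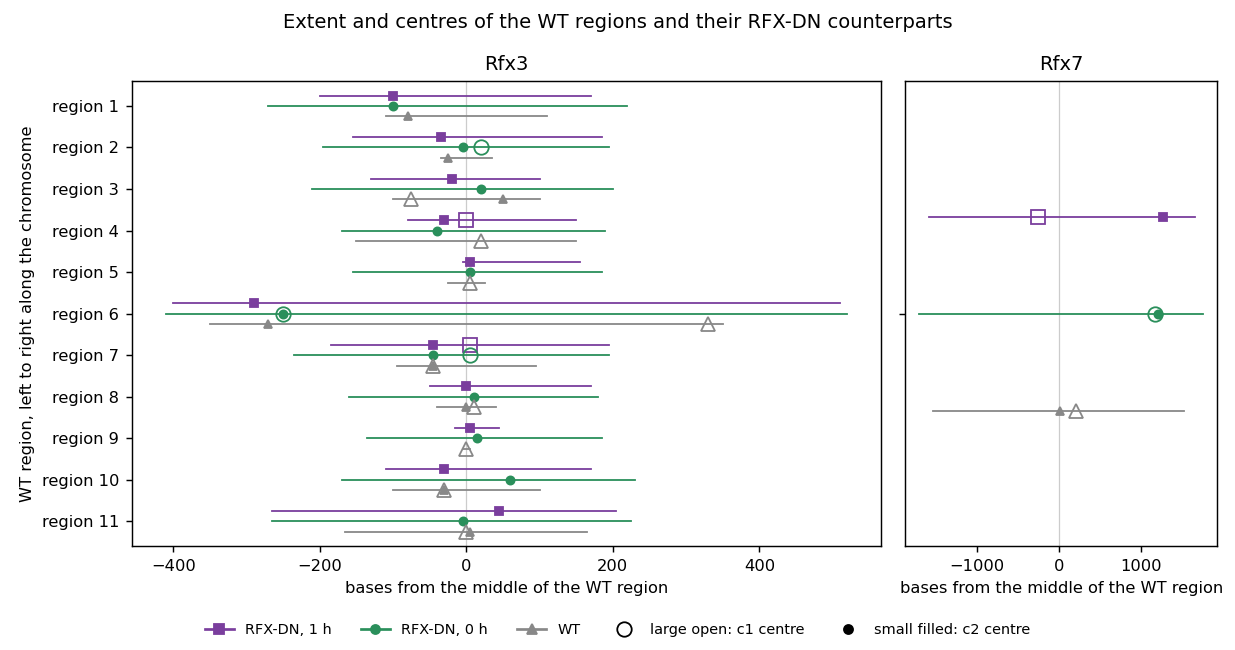
Extent (lines) and centres (symbols) of the WT regions and their 1 h and 0 h counterparts, in bases from the middle of the WT region; large open symbols are c1 and small filled ones c2. Centres at Rfx3 lie within 125 bases of one another except in region 6, where the WT c1 centre is 620 bases from the leftmost centre. The Rfx7 centres (right, other scale) spread over 1530 bases, in a region wider than any at Rfx3.

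To the right of the run, no region of the Rfx3 window could meet WT, because the run ends with the last WT region there. Of the 15 at 1 h, 12 had a c1 centre and 5 centres in both columns, and of the 20 at 0 h, 17 had a c1 centre and 12 centres in both columns. The widest at 0 h ran from 28085350 to 28086110 (760 bases), with a 1 h counterpart from 28085360 to 28085790 (430 bases). Its centre was 28085580 in both columns at both times, and 98.5% of the 0 h list was narrower. This region had no WT counterpart and was wider at 0 h than 10 of the 11 that had one. Lacking one is the common state: 0.0190% of the whole 0 h list and 0.0295% of the whole 1 h list met WT. The region with the next width at 0 h, 28063200 to 28063610 (410 bases), was the widest at 1 h (28063140 to 28063600, 460 bases), and c1 and c2 each gave a centre at both times. Both of these regions had centres in every RFX-DN column and no WT counterpart, which is near the whole lists for WT. Of the 11 regions of the run that met WT, 7 had a centre in the column named c2 only, in both lists.

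The other regions without a WT counterpart that were named by width were narrower. At 1 h they were 27991140 to 27991440 (300 bases, c1 only), 27981540 to 27981810 (270 bases, both columns) and 28068190 to 28068430 (240 bases, c1 only). At 0 h they were 27991040 to 27991390 (350 bases, c1 only), 27882110 to 27882380 (270 bases, both columns) and 27955090 to 27955340 (250 bases, both columns), the last of which has no 1 h counterpart. Of the 19 pairs that did not meet WT, 14 were narrower and 5 wider at 1 h, with a median of 81.5% of the 0 h width. That is near the whole lists, where 71.2% of pairs were narrower at 1 h.

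The Rfx7 window was not crowded, and its WT region was of another kind. The 1 h list had 5 regions there, the 0 h list 11 and the WT list 1, against medians of 5 at 1 h and 7 at 0 h in tiles of 105 kb. All 5 of the 1 h regions overlapped a 0 h region (interval 47.8% to 100%), and 5 of the 11 at 0 h overlapped a 1 h region (45.5%, interval 16.7% to 76.6%). Both intervals include the shares of the whole lists, 93.3% and 65.4%, but they are wide and cover counting error only. Regions of 1 window share their libraries and are not replicates, so no agreement is read from the intervals. Without the 0 h list's c2 column, 6 regions were left at 0 h and the share was 83.3%. That step drops the c2-only regions, which were also the least retained over the whole 0 h list. There 15.9% of them overlapped a 1 h region, against 84.9% of both-column and 41.3% of c1-only regions. The whole-list share under this setting was not computed, so the rise is not read as particular to Rfx7.

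The WT region of Rfx7 was the widest in its list and the second widest in both RFX-DN lists. It ran over 3240 bases at 1 h (72464460 to 72467700), 3460 bases at 0 h (72464340 to 72467800) and 3060 bases in WT (72464510 to 72467570). The 1 h width was 93.6% of the 0 h width, and the WT region lay inside both. Both columns of each list held a centre. These centres were more scattered than those of the Rfx3 run, in a region wider than any of that run: 72465780 and 72467310 at 1 h, 72467215 and 72467250 at 0 h, and 72466250 and 72466050 in WT. In the widest region of the run, region 6, the WT centres also lay 600 bases apart. No distance relative to region width was computed. The nearest centres of WT lay 270 bases from a 1 h centre and 965 bases from a 0 h centre, so no WT centre came within 250 bases of an RFX-DN centre despite the overlap. The 6 centres together spanned 1530 bases of the region.

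Just left of this region, 2 narrower regions were listed at both times without a WT counterpart. One measured 290 bases at 1 h (72462860 to 72463150) and 450 at 0 h (72462770 to 72463220), with centres in both columns at both times. The other measured 130 bases at 1 h (72461870 to 72462000, c1 only) and 210 at 0 h (72461780 to 72461990, both columns). Both were narrower at 1 h.

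At the far left of the window, a region of 490 bases with both columns at 0 h (72380590 to 72381080) had only 60 bases, in c2 alone, at 1 h (72380910 to 72380970). Its neighbour had 200 bases at 0 h (72378100 to 72378300, both columns) and 10 bases at 1 h (72378170 to 72378180, c2 only). All 4 Rfx7 pairs that did not meet WT were narrower at 1 h, as were 71.2% of all pairs of the whole lists. Their median width was 37.1% of the 0 h width, against 89.7% over all pairs.

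Of the 6 regions at 0 h with no 1 h counterpart in the Rfx7 window, 5 had a centre in c2 only. These ran from 72379320 to 72379520 (200 bases), 72439580 to 72439610 (30 bases), 72440960 to 72441160 (200 bases), 72455330 to 72455540 (210 bases) and 72459340 to 72459720 (380 bases). The last was wider than 91.2% of the 0 h list. The sixth, 72370950 to 72371080, had a c1 centre only. At least 5 c2-only regions at 0 h were held by 93 of 23550 other tiles of 105 kb (0.395%). At 1 h the window had 2 c2-only regions, and 1245 of 22785 other tiles (5.46%) held at least as many. These ranks are a description only, because the genes were picked with these lists known and the tiles lie on a fixed grid. All 5 of the c2-only 0 h regions at Rfx7 lacked a 1 h and a WT counterpart. That is near the whole 0 h list, where 15.9% of c2-only regions met a 1 h region and 0.0190% of all regions met WT.

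**Figure D5:**
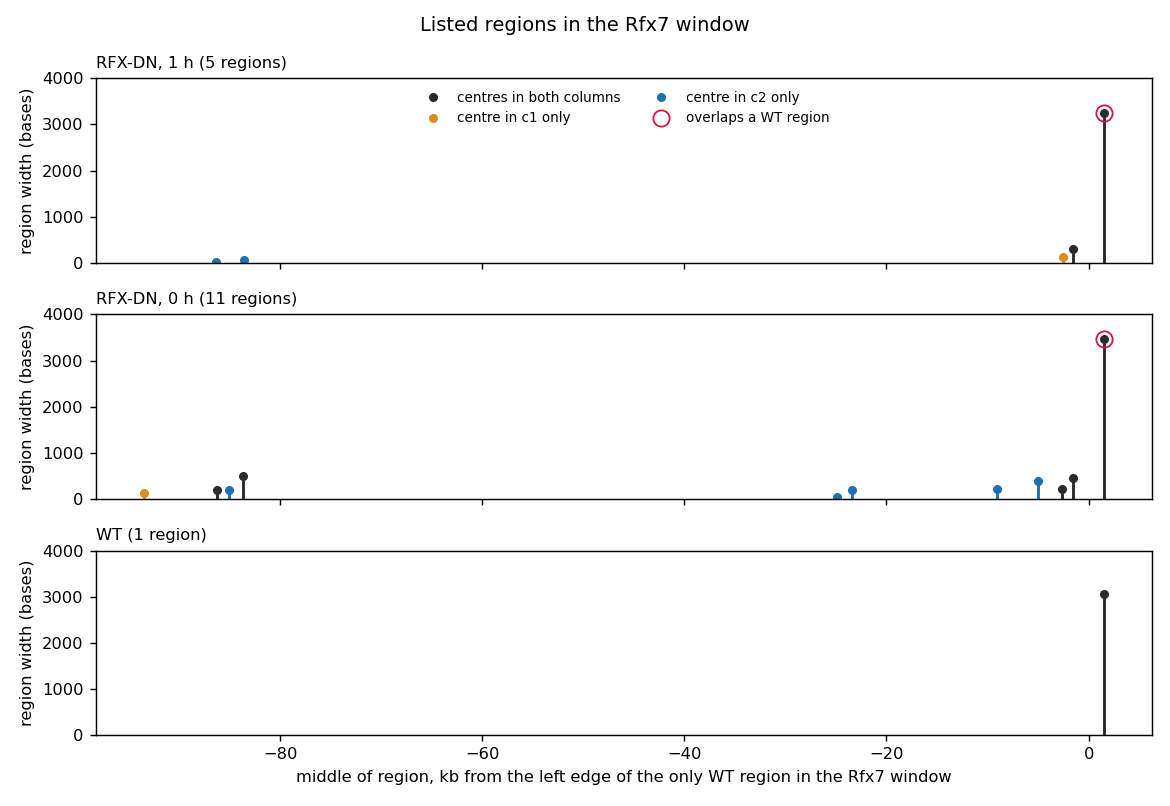
Regions of the Rfx7 window in the 1 h, 0 h and WT lists (top to bottom), placed by their middle in kb from the left edge of the window's WT region, with height giving width in bases and colour the columns that hold a centre. The region that overlaps WT, at the right, measures 3240 bases at 1 h, 3460 at 0 h and 3060 in WT, and the 5 blue (c2 only) regions at 0 h have no counterpart at 1 h.

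Fewer centres were listed at 1 h than at 0 h in both windows. In the Rfx3 window c1 and c2 held 18 and 20 centres at 1 h, 24 and 29 at 0 h, and 9 and 8 in WT. The means were 19.0 ± 1.41 at 1 h and 26.5 ± 3.54 at 0 h (SD, n = 2 columns each; difference -7.50, two-sided exact permutation p = 0.33). In the Rfx7 window they held 3 and 4 centres at 1 h, 6 and 10 at 0 h, and 1 each in WT. There the means were 3.50 ± 0.707 at 1 h and 8.00 ± 2.83 at 0 h (SD, n = 2 columns each; difference -4.50, two-sided exact permutation p = 0.33). In raw numbers both 1 h columns lay below both 0 h columns in either window, yet 0.33 is the smallest p that 2 columns against 2 allow, so no call could be made. The 1 h columns are also shorter as a whole, with 114659 and 74386 centres at 1 h against 155961 and 122913 at 0 h. Per 10000 centres of the same column, the Rfx3 difference turned to 0.18 more at 1 h (two-sided exact permutation p = 0.667, n = 2 columns each). The Rfx7 difference was -0.199 on that scale (two-sided exact permutation p = 0.667, n = 2 columns each). The scaled Rfx7 values were 0.262 and 0.538 at 1 h and 0.385 and 0.814 at 0 h, so the columns of the 2 times overlapped. In the whole lists c2 held fewer centres than c1, whereas in both windows c2 held more than c1 at both times. At Rfx3 this rested on the regions that met WT. Among those that did not, c2 held fewer than c1, with 9 against 16 at 1 h and 18 against 21 at 0 h.

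The windows' edges set which regions were counted. At Rfx3, the regions nearest to the edges lay 17.9 kb inside and 3.96 kb outside on the left at 1 h, and 9.21 kb inside and 11.7 kb outside on the right. At 0 h the distances were 17.8 and 3.92 kb on the left, and 8.89 and 11.7 kb on the right. At Rfx7 they lay 8.17 kb inside and 12.3 kb outside on the left at 1 h, and 7.30 kb inside and 12.9 kb outside on the right. At 0 h the Rfx7 distances were 0.95 and 12.2 kb on the left, and 7.20 and 12.8 kb on the right.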

How the data were processed

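The lists were deposited as base positions on mm9, 1 list for the 2 libraries of a group, with region starts, ends and 2 columns of centres, per the file headers. Per the submitters' processing notes, the build was mm9 and the aligner Bowtie. How peaks were called, at which threshold, and how replicates were combined is not stated. Every centre lies inside its region, and -1 marks a column without one.

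Regions were taken into a window when they overlapped it, and counted as meeting another list when they overlapped by at least 1 base. Tiles lay on a fixed grid, which can split a cluster, and were counted by region middles. Column means were compared with a two-sided exact permutation test. With 2 columns against 2 its smallest p is 0.33, so the p-values do not estimate the spread between columns. The columns are read as libraries, and differences between libraries may be technical. Alternatives were a 50% reciprocal overlap, centres within 250 bases, windows changed by 10 kb, merging within 500 bases, both-column regions and leaving out a column. All WT regions, the 5 widest others per list and window, and all regions inside the run were named; further regions were named after their values were seen. The members and lists were chosen with earlier results of these data known. The overlap code was tested on simulated data. Python 3.11.15, pandas 2.3.3, NumPy 2.4.6 and SciPy 1.17.1 were used. Depth is unknown.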

Additional observations from a re-analysis of the deposited data

How the results depend on the processing

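No paired analysis was possible because c1 and c2 name no library. Of 154 alternative values, 1 reversed and 25 moved past the limit set for them, which was 1.5 times for a count and the reported interval for a share. The other 128 stayed within those limits or, for differences, kept their sign. Some of these 128 could not change, because the column left out belonged to a list that the result does not use. Examples are the shares between 1 h and 0 h without a WT column. Staying within the limits still allows sizeable moves: with 50% of both regions required, the Rfx7 shares were 60.0% of 1 h and 27.3% of 0 h regions. The reversed one is the Rfx3 difference in centres per column, which was 0.18 per 10000 centres of the same column. Reducing the windows by 10 kb left 4 Rfx7 regions at 1 h and 8 at 0 h. With only both-column regions, the Rfx3 window held 8 (1 h list), 18 (0 h list) and 6 (WT list) regions, the Rfx7 window 2 at 1 h and 5 at 0 h, and 1 Rfx3 region at 1 h and 2 at 0 h met WT. The shares met were then 75% of 1 h and 33.3% of 0 h regions at Rfx3. With 50% of both regions required, these shares were 80.0% and 68.6%, and 7 Rfx3 regions at 1 h and 4 at 0 h met WT. With centres within 250 bases, 0 Rfx7 regions met WT at 1 h and 0 at 0 h.

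With 1 column left out, Rfx3 regions numbered 18 to 20 at 1 h, while the Rfx7 window held 3 to 4 in the 1 h list and 6 to 10 in the 0 h list. Rfx3 regions that met WT ranged from 2 to 11 (1 h list) and from 3 to 11 (0 h list), lowest without the c2 column of the same list in both cases. The share met ranged from 66.7% (without the 0 h list's c2 column) to 100% for 1 h regions of Rfx3, from 51.4% to 89.7% for 0 h regions of Rfx3 and from 27.3% to 83.3% for 0 h regions of Rfx7. Over the whole 0 h list the share was 42.0% without the 1 h list's c1 column and 62.1% without its c2 column. With both-column regions only it was 61.0%. Whole-list shares under the other alternatives, and of 1 h regions under any, were not computed. Those moves are therefore not read as particular to the windows. A shorter list follows from leaving out a column, and what else moved these values was not tested. No limit of detection could be given without depth.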
